A study of Mus musculus with 6 samples.

Results

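The PI3K, AKT and mTOR genes downstream of IL-15 were examined in splenic natural killer (NK) cells of Xbp1s knockout and wild-type mice. The 8 members, Pik3cd, Pik3r1, Akt1, Akt2, Tsc1, Mtor, Rptor and Rictor, were taken from the deposited table by their gene symbols, and all 8 were among its 11717 listed genes. RNA of purified splenic NK cells was sequenced in 6 libraries from C57BL/6 mice. Of these, 3 came from IL-15Tg-Xbp1s cKO mice (cKO), a conditional knockout directed at Xbp1s, and 3 from IL-15Tg WT mice (WT). Both groups carry the IL-15 transgene, so neither shows the pathway at a normal IL-15 dose. The labels name neither the promoter of the transgene, nor the Cre driver of the knockout, nor the age of the mice, nor any pooling of animals. They also leave unsaid whether each library had its own mouse, so p-values reflect the spread of these libraries alone, and that spread may be technical.

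IL-15 binding to its receptor on NK cells recruits class I phosphoinositide 3-kinase (PI3K), which makes the membrane lipid PIP3 and thereby brings the kinase AKT to the membrane. AKT phosphorylates and blocks the TSC complex, which frees the small GTPase RHEB to switch on mTOR complex 1 (mTORC1), and it also keeps FOXO transcription factors out of the nucleus. In NK cells this route is known for supporting growth, metabolic activation and effector function, and most of its control acts on proteins and lipids, which RNA levels do not measure. XBP1s is a transcription factor of the unfolded protein response, so the question here was whether transcripts of the route differed between the genotypes.

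The core letters ACGTG, found within known XBP1s binding elements, were searched on both strands of 15 RefSeq promoter windows of the 8 members (300 bases each, from 250 before to 50 after an annotated start, build GRCm38.p6). They were present in 3 of the 15 windows, of Akt2, Rptor and Pik3cd, against 19.6% of all 32851 windows in the same table. The 100 bases that hold the core are shown for these members, because they are the members with that core near a start, with the core in capitals. The Akt2 and Rptor stretches end at the base before the start, and the Pik3cd stretch lies from 200 to 101 bases before an internal start of that gene. None of the 3 overlaps an annotated exon.
Akt2, chr7:27591452-27591551, plus strand: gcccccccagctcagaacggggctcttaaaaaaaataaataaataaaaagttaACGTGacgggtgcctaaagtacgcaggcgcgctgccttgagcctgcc
Rptor, chr11:119602805-119602904, plus strand: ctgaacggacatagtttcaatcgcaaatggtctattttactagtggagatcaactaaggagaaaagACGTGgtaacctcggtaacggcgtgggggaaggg
Pik3cd, chr4:149676190-149676289, minus strand: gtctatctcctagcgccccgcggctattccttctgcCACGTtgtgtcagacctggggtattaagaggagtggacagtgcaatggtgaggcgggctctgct
The core begins 47 bases before the start in Akt2, 34 in Rptor and 164 in Pik3cd. The longer element TGACGTGG was in 0 of the 15 windows and in 0.676% of all windows. The half-element CCACG, which can overlap ACGTG, was in 7 of the 15 windows and in 32.8% of all. A match is only a description of these letters and not a bound site.

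Reads over the listed genes numbered between 26907844 and 29366756 in the cKO libraries and between 26297292 and 28585834 in the WT libraries. A level is given in CPM, a gene's reads for every 1000000 reads that fell on listed genes. Members had between 2058 and 21329 reads per library, so counting error alone was at most 2.20% (SD, for the 2058 reads of Tsc1) and below the SD between the libraries of either group in all 8 members. The targeted gene, Xbp1, was at 35.1, 33.4 and 39.7 CPM in cKO libraries 1, 2 and 3, and at 42.9, 61.4 and 63.5 CPM in WT libraries 1, 2 and 3. The groups did not overlap, and the log2 difference, cKO minus WT on the log2(CPM + 0.5) scale used throughout, was -0.61 (limma, adjusted p = 1.0). Spliced and unspliced Xbp1 are counted together in these values. All 12 NK cell markers were above 0 in every library, with summed levels of 11645 to 12586 CPM in cKO and 12340 to 14015 CPM in WT. The sum hides single markers. Ncr1, Nkg7 and Klrd1 were lower in every cKO library than in every WT library, and Eomes was higher. Ncr1 was at 975, 963 and 881 CPM in cKO libraries 1, 2 and 3, and at 1264, 1408 and 1242 CPM in WT libraries 1, 2 and 3. Groups did not overlap in 4.32% of all genes tested.

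Transcripts of none of the 8 members passed the test between the genotypes. In limma with Benjamini-Hochberg adjustment over all 11343 genes tested, 0 of 8 members rose or fell at a threshold of 0.05, against 0% of all genes tested. At an unadjusted p under 0.05 limma listed 0 of the 8 members and 1.17% of all genes tested, or 133 genes. Single libraries moved that count, to 58 and 391 genes when cKO libraries 1 and 2 were omitted in turn and to 267 genes when WT library 1 was, with 0 members among them. The edgeR quasi-likelihood test and DESeq2 on the recovered reads also called 0 members and listed 0 at an unadjusted p under 0.05, where they listed 1.28% and 1.37% of all genes. The edgeR test called 0% of all genes and DESeq2 0.0529%, or 6 genes. All 8 members passed the filter on low values. Their differences ran between -0.088 (Akt2) and 0.086 (Tsc1), with 4 above and 4 below 0 and a median of 0.0032 (-0.0097 with median-ratio scaling). The median over all genes tested was 0.0087 (-0.0040 with median-ratio scaling). The sign of Pik3cd, Akt1, Rptor and Rictor turned when single libraries were left out: without cKO library 3 the log2 differences of Pik3cd, Akt1 and Rictor were -0.0056, 0.035 and -0.039, and without WT library 3 that of Rptor was 0.029. Each such fit also left a library of the other group without the one most like it. The part of this in the turned signs was not tested.

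**Figure D1:**
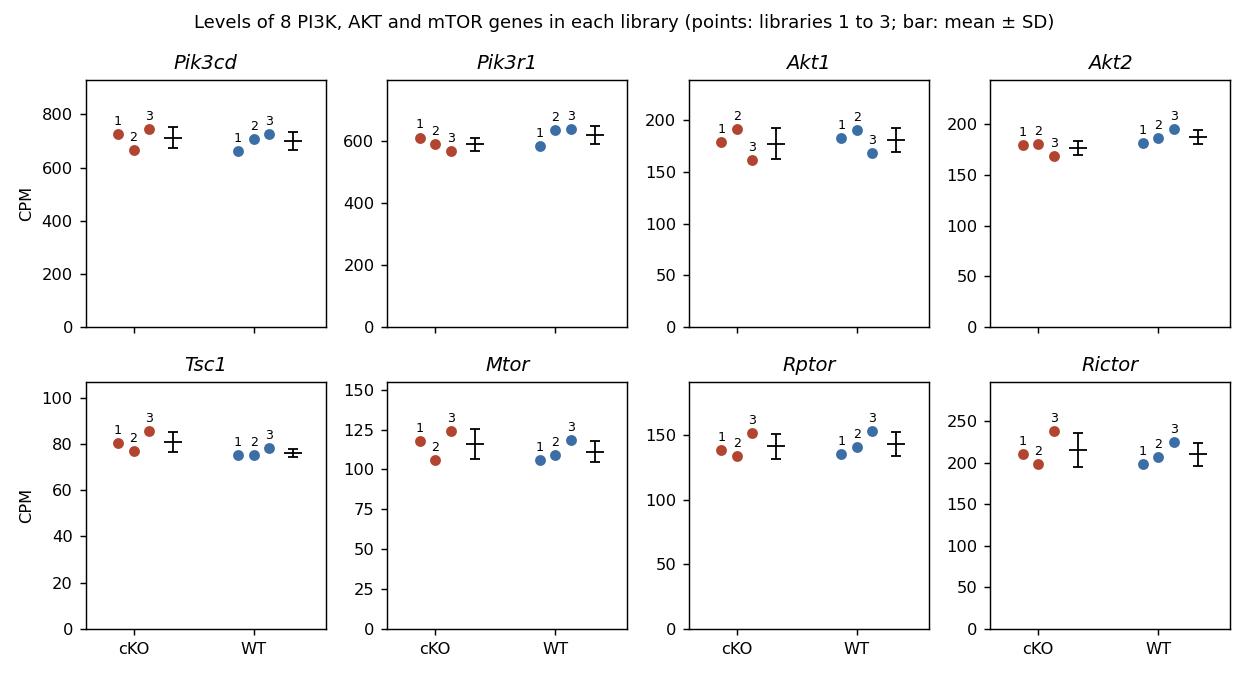
CPM (vertical axes, starting at 0) of the 8 members in cKO and WT libraries, with each numbered point a library and the black mark the mean ± SD of 3 libraries. The groups overlap in every gene but Akt2, whose 3 cKO libraries (168.8 to 181.1 CPM) lie just below the lowest WT library (181.3 CPM).

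The first step, PI3K, was represented by Pik3cd, which encodes the leukocyte catalytic subunit p110 delta (minus strand of chromosome 4, 149649168 to 149702571, mm10), and by Pik3r1, which encodes the regulatory subunit p85 alpha (minus strand of chromosome 13, 101680563 to 101768217). Pik3cd was at 726, 667 and 744 CPM in cKO libraries 1, 2 and 3, and at 663, 708 and 727 CPM in WT libraries 1, 2 and 3. Library 3 was highest in either group and the groups overlapped. Its means were 712 ± 40.4 CPM in cKO and 699 ± 32.9 CPM in WT (SD, n = 3 each), a log2 difference of 0.026 with a 95% confidence interval of -0.13 to 0.18. Pik3r1 was at 611, 589 and 568 CPM in the cKO libraries, and at 585, 636 and 638 CPM in the WT libraries. All 3 cKO libraries were below the WT mean, but WT library 1 lay within the cKO range. Its log2 difference was -0.071 (95% confidence interval -0.21 to 0.069; limma, adjusted p = 1.0).

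Other PI3K genes followed the same lack of calls. Of 12 catalytic, regulatory and adaptor genes on the fixed list, 10 were in the table and tested, and 0 passed in either direction, with 5 above and 5 below 0 (7 above with quantile scaling) and a median log2 difference of 0.0053. Per exon length, p110 delta transcripts were the most abundant class I catalytic subunit in both groups. Pik3cd averaged 114 ± 6.45 RPKM in cKO and 112 ± 5.26 RPKM in WT (SD, n = 3 each; CPM divided by the exon length in kilobases). Pik3cg, which encodes p110 gamma, averaged 24.9 RPKM in cKO and 24.6 RPKM in WT. Pik3ca, for p110 alpha, averaged 16.3 RPKM in either group, and Pik3cb, for p110 beta, 16.0 RPKM in cKO and 16.8 RPKM in WT. The 3 genes of smallest p were Pik3c3, Pik3c2b and Pik3ap1. Pik3c3, the class III kinase of autophagy, averaged 87.9 ± 6.78 CPM in cKO and 95.7 ± 4.74 CPM in WT (SD, n = 3 each). Pik3ap1, which encodes the adaptor BCAP, averaged 280 ± 18.4 CPM in cKO and 264 ± 15.9 CPM in WT (SD, n = 3 each). Neither passed.

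Pik3c2b, a class II PI3K, had the widest difference of the list and varied with the content of B cell markers. It was at 34.6, 13.4 and 36.7 CPM in cKO libraries 1, 2 and 3, and at 17.2, 21.9 and 10.3 CPM in WT libraries 1, 2 and 3. The groups overlapped, because cKO library 2 lay below 2 of the WT libraries, and the log2 difference of 0.70 (95% confidence interval -0.34 to 1.74) did not pass (limma, adjusted p = 1.0). All 15 B cell markers were above 0 in every library, and their summed level was 2325, 1035 and 2315 CPM in the cKO libraries, and 1310, 1492 and 731 CPM in the WT libraries. The libraries with the most B cell marker reads were those with the most Pik3c2b, and WT library 3 was lowest in both. Summed macrophage markers were also highest in cKO libraries 1 and 3 (446 and 291 CPM) and lowest in WT library 3 (195 CPM). Whether reads of either cell type contribute to Pik3c2b was not tested. In bulk samples fewer cells of a type and less RNA per cell cannot be told apart.

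**Figure D2:**
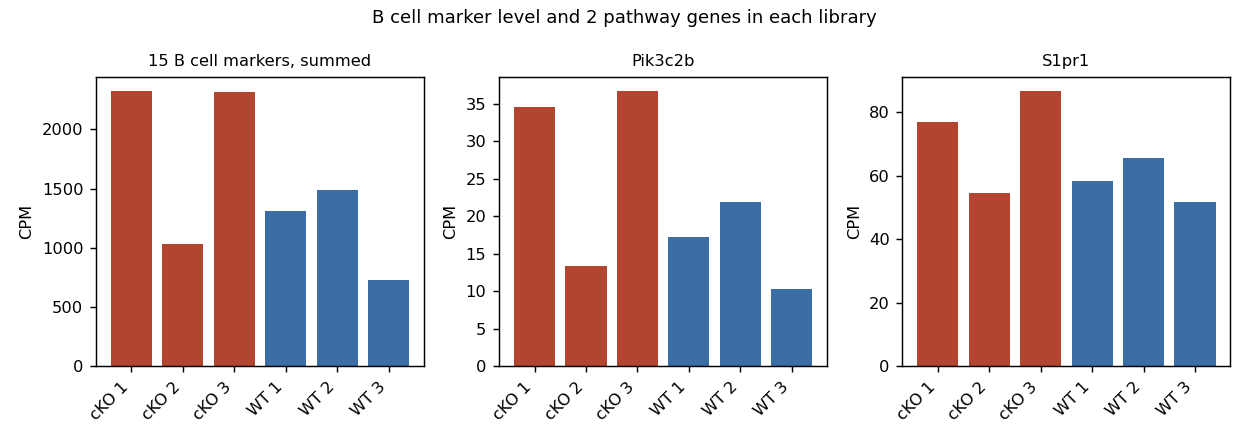
Level in CPM (bars from 0, one per library, cKO left of WT) of the 15 B cell markers summed, of Pik3c2b and of S1pr1. In all 3 panels cKO libraries 1 and 3 are the highest and WT library 3 is the lowest.

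The second step, AKT, was represented by Akt1 (minus strand of chromosome 12, 112653821 to 112674884) and Akt2 (plus strand of chromosome 7, 27591552 to 27640826), which encode related kinases. Akt2 was at 180, 181 and 169 CPM in cKO libraries 1, 2 and 3, and at 181, 187 and 195 CPM in WT libraries 1, 2 and 3. Every cKO library was lower than every WT library, by a margin of 181.1 against 181.3 CPM at the closest, and this separation without overlap in that direction was seen in 1.77% of all genes tested. The means were 177 ± 6.82 CPM in cKO and 188 ± 7.08 CPM in WT (SD, n = 3 each), a difference of -5.90% with a 95% confidence interval of -13.6% to 2.48%. Akt2 had the smallest p of the 8 members and did not pass (log2 difference -0.088; limma, adjusted p = 1.0), and its exact two-sided permutation p of 0.1 is the lowest possible with 3 libraries a group.

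Akt1 was spread more widely within each group than between them. It was at 179, 191 and 162 CPM in the cKO libraries, and at 183, 191 and 168 CPM in the WT libraries. Library 3 was the lowest of either group, and the means of 177 ± 14.8 CPM in cKO and 181 ± 11.4 CPM in WT (SD, n = 3 each) differed by -0.029 on the log2 scale (95% confidence interval -0.22 to 0.16). Per exon length Akt1 was the more abundant of the pair, with 43.3 RPKM in cKO and 44.1 RPKM in WT, against 24.8 RPKM in cKO and 26.3 RPKM in WT for Akt2. The within-library ratio of Akt1 to Akt2 per exon length cannot be moved by multiplying a library by a factor. Its geometric mean was 1.74 in cKO and 1.67 in WT, and its groups overlapped.

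Around AKT, 12 of 13 genes on the relay list were tested and 0 passed in either direction, with 6 above and 6 below 0 (median -0.0031). The 3 of smallest p were Sgk3, Irs2 and Gsk3a. Sgk3, a kinase related to AKT, was at 25.5, 20.8 and 28.8 CPM in the cKO libraries and at 20.9, 20.9 and 20.4 CPM in the WT libraries. The WT values were close together, and cKO library 2 lay among them (log2 difference 0.25; limma, adjusted p = 1.0). Irs2, an adaptor of the insulin receptor, averaged 34.9 ± 4.85 CPM in cKO and 30.7 ± 2.40 CPM in WT, and Gsk3a, a kinase that AKT inhibits, 130.5 ± 5.08 CPM in cKO and 137 ± 5.68 CPM in WT (SD, n = 3 each). Foxo1 averaged 127 ± 17.9 CPM in cKO and 125 ± 9.75 CPM in WT, and Foxo3 202 ± 19.0 CPM in cKO and 205 ± 18.5 CPM in WT (SD, n = 3 each). Foxo1 and Foxo3 encode transcription factors that AKT inhibits, and both were chosen for naming after their values were seen.

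Of 13 genes listed as brakes on PI3K and AKT, 12 were tested and 0 passed, with 7 above and 5 below 0 (median 0.019). Phlda3, a p53 target whose product competes with AKT for membrane lipids, had the smallest p of all the pathway genes. It was at 3.98, 3.62 and 3.64 CPM in cKO libraries 1, 2 and 3, and at 1.77, 1.05 and 1.98 CPM in WT libraries 1, 2 and 3. All 3 cKO libraries were above all WT libraries, as in 2.55% of all genes tested, with a log2 difference of 1.04 (95% confidence interval 0.55 to 1.54), and the gene still missed the threshold (limma, adjusted p = 1.0). Trib2, a pseudokinase, averaged 18.9 ± 3.45 CPM in cKO and 15.1 ± 7.37 CPM in WT (SD, n = 3 each) and did not pass. It is best known for binding the ubiquitin ligase COP1, and whether it acts as a brake in these cells was not tested.

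The next step, the TSC complex, was represented by Tsc1 (plus strand of chromosome 2, 28641228 to 28691167), the subunit that stabilises the GTPase-activating protein TSC2. Tsc1 was at 80.4, 77.0 and 85.6 CPM in cKO libraries 1, 2 and 3, and at 75.0, 75.4 and 78.3 CPM in WT libraries 1, 2 and 3. All 3 cKO libraries were above the WT mean and 2 of them above all WT libraries, with WT library 3 inside the cKO range. The means were 81.0 ± 4.34 CPM in cKO and 76.2 ± 1.77 CPM in WT (SD, n = 3 each), a difference of 6.13% with a 95% confidence interval of -3.26% to 16.4% (log2 difference 0.086; limma, adjusted p = 1.0). The spread of the WT libraries, 2.32% of their mean, was close to the counting error of 2.20%. Tsc2 averaged 111 ± 2.60 CPM in cKO and 113 ± 1.72 CPM in WT (SD, n = 3 each).

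Set against each other, the within-library log2 ratio of Tsc1 to Tsc2 per exon length was -0.80, -0.82 and -0.64 in the cKO libraries, and -0.88, -0.87 and -0.86 in the WT libraries. The ratio was higher in every cKO library than in any WT library. No test was made of it, and how often ratios of other gene pairs separate was not counted. Of 13 listed genes around TSC, RHEB and the energy sensor AMPK, 10 were tested and 0 passed, with 3 above and 7 below 0 (median -0.030; 1 above with quantile scaling and 2 with median-ratio scaling, edgeR or DESeq2). The 3 of smallest p were Tsc2, given above, Prkaa1 and Stk11. Prkaa1, a catalytic subunit of AMPK, averaged 65.0 ± 5.40 CPM in cKO and 70.2 ± 6.73 CPM in WT, and Stk11, the kinase LKB1 that activates AMPK, 123 ± 4.22 CPM in cKO and 119 ± 6.95 CPM in WT (SD, n = 3 each).

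**Figure D3:**
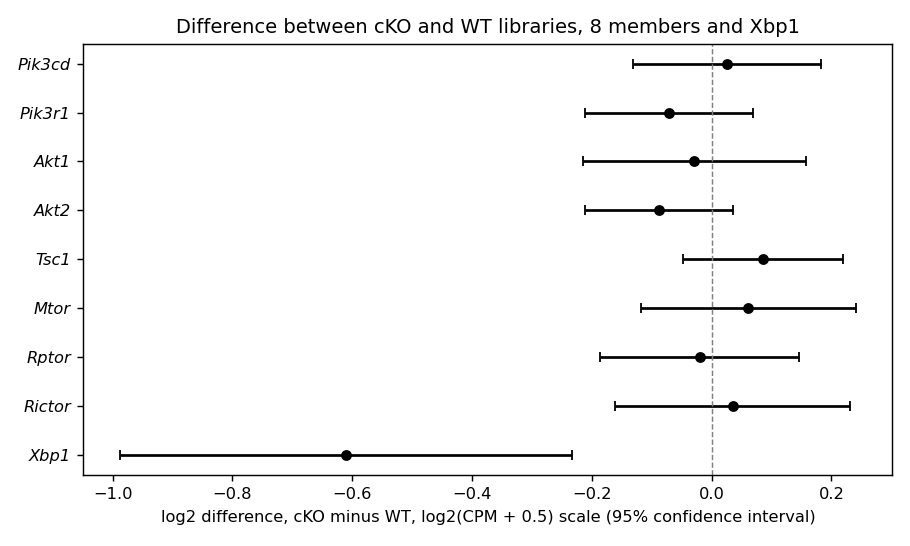
Log2 difference, cKO minus WT on the log2(CPM + 0.5) scale, of the 8 members and of Xbp1, with points for the estimate and bars for the 95% confidence interval from limma. The intervals of all 8 members hold 0, while that of Xbp1 runs from -0.99 to -0.23.

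The last step was represented by Mtor, the kinase shared by both complexes (plus strand of chromosome 4, 148448611 to 148557683), Rptor, the RAPTOR scaffold of mTORC1 (plus strand of chromosome 11, 119602905 to 119899576), and Rictor, the scaffold of mTORC2 (plus strand of chromosome 15, 6708379 to 6800401). Mtor was at 118, 106 and 124 CPM in cKO libraries 1, 2 and 3, and at 106, 109 and 118 CPM in WT libraries 1, 2 and 3. The groups overlapped, and the log2 difference was 0.061 (95% confidence interval -0.12 to 0.24). Rptor was at 138, 133 and 151 CPM in the cKO libraries, and at 135, 141 and 153 CPM in the WT libraries, a log2 difference of -0.020 (95% confidence interval -0.19 to 0.15). Library 3 was again the highest of either group. Exons of Rptor share 84 bases with Rptoros, an antisense gene, and the use of strand in counting is not stated, so reads there cannot be assigned to either.

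Rictor was at 210, 198 and 238 CPM in the cKO libraries, and at 198, 207 and 224 CPM in the WT libraries. Its means were 216 ± 20.5 CPM in cKO and 210 ± 13.4 CPM in WT (SD, n = 3 each), a log2 difference of 0.035 (95% confidence interval -0.16 to 0.23). The within-library log2 ratio of Rptor to Rictor per exon length was -0.27, -0.24 and -0.32 in the cKO libraries, and -0.22, -0.23 and -0.22 in the WT libraries. It was lower in every cKO library than in any WT library, by a mean of 0.056 and at the closest with -0.242 against -0.229. It was not tested, and how often ratios of other gene pairs separate was not counted. The ratio of Pik3cd to Pik3r1 per exon length had a geometric mean of 1.94 in cKO and 1.82 in WT, with overlapping groups.

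Of 8 further listed genes for subunits and assembly factors of the mTOR complexes, 7 were tested and 0 passed, with 6 above and 1 below 0 (median 0.026; 5 above with quantile scaling). The 3 of smallest p were Prr5l, Prr5 and Telo2. Prr5l, a partner of mTORC2, averaged 96.6 ± 1.69 CPM in cKO and 93.6 ± 6.88 CPM in WT. Its relative Prr5 averaged 23.6 ± 3.20 CPM in cKO and 22.1 ± 2.47 CPM in WT, and Telo2, which helps assemble the kinase, 27.9 ± 1.28 CPM in cKO and 26.8 ± 3.67 CPM in WT (SD, n = 3 each).

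Per exon length, the order of the members was the same in both groups: Pik3cd, Pik3r1, Akt1, Akt2, Rictor, Mtor, Rptor and Tsc1. The ranges over all 6 libraries of neighbouring members did not overlap from Pik3cd down to Rictor, where Akt2 ran from 23.7 to 27.4 RPKM and Rictor from 11.7 to 14.1 RPKM. Rictor, Mtor (10.5 to 12.3 RPKM) and Rptor (9.90 to 11.4 RPKM) followed, with the range of Rictor overlapping that of Mtor and the range of Mtor that of Rptor, although within each of the 6 libraries Rictor was above Mtor and Mtor above Rptor. Tsc1 was lowest, with no overlap with Rptor, at 6.34 to 7.23 RPKM. The exon length is the union over all annotated isoforms, so a gene with long, rarely used exons has a lower value.

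Some of the members differed between libraries of one group in a shared way. Relative to each gene's own mean over 6 libraries, Mtor, Rptor, Rictor and Pik3cd were above it by 0.077 to 0.17 on the log2 scale in cKO library 3 and by 0.044 to 0.11 in WT library 3. The same genes were below their means in cKO library 2 (-0.098 to -0.080) and WT library 1 (-0.099 to -0.066). Akt1 lay the other way, at -0.14 in cKO library 3 and -0.086 in WT library 3. Akt2 and Pik3r1 were low in cKO library 3 (-0.11 and -0.089) and high in WT library 3 (0.10 and 0.079). Tsc1 was at 0.12 in cKO library 3 and -0.0049 in WT library 3.

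Over all genes tested, libraries differed by exon length in a similar direction, a comparison chosen after the values were seen. Among the 3781 genes with the longest total exon length, the median deviation was 0.039 in cKO library 3 and 0.017 in WT library 3. It was -0.028 in cKO library 2 and -0.025 in WT library 1. Among the 3781 with the shortest, it was -0.030 in cKO library 3, -0.041 in WT library 3, 0.033 in cKO library 2 and 0.0067 in WT library 1. Mtor, Rptor, Rictor and Pik3cd, with a total exon length of 6259 to 16930 bases, belong to the longest class, as do Akt2, Pik3r1 and Tsc1. Akt1, with 4098 bases, belongs to the 3781 in between. The part of exon length in the members' values was not tested.

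**Figure D4:**
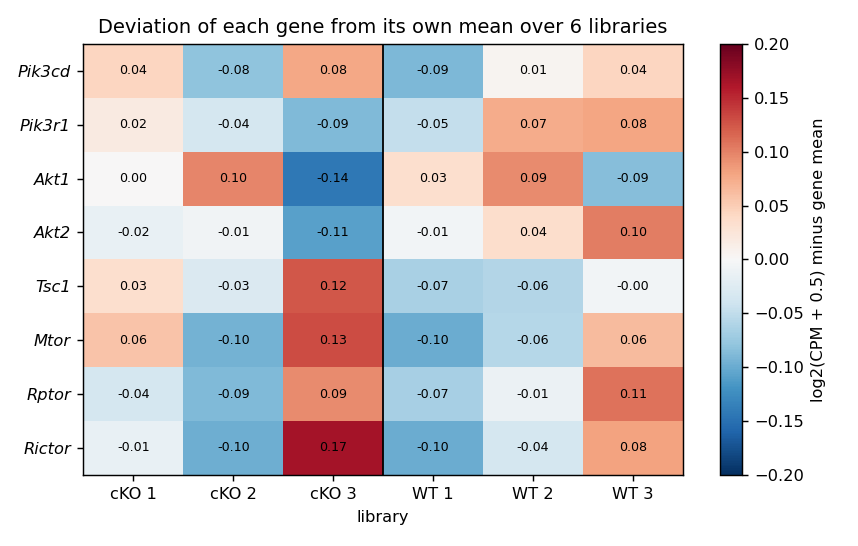
Deviation of each member (rows) in each library (columns, cKO left of WT) from its own mean over 6 libraries, on the log2(CPM + 0.5) scale, red above and blue below. In cKO library 3 Rictor reaches 0.17 and Akt1 -0.14.

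The genes whose profile over the 6 libraries was most like that of Akt2, the member of smallest p, were Pglyrp1, Chmp2a and Calu. Their centred log2(CPM + 0.5) values differed from those of Akt2 by root mean squares of 0.0080, 0.019 and 0.022, where the median of 11335 genes compared was 0.123. Pglyrp1 encodes a peptidoglycan recognition protein, Chmp2a a subunit of the ESCRT-III membrane scission machinery, and Calu the calcium-binding protein calumenin of the secretory pathway. Their group differences (log2 -0.095, -0.11 and -0.082) are close to that of Akt2 because the genes were chosen for this likeness.

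Amino acid sensing, which brings mTORC1 to the lysosome, was the largest of the pathway lists. Of 33 listed genes 31 were tested and 0 passed, with 24 above and 7 below 0, where 55.5% of all genes tested were above 0. The median was 0.028. That split moved with the scaling. With quantile or median-ratio scaling 16 of the 31 were above 0, and in edgeR and DESeq2 15 of the 31. Without 2 genes on ribosomal RNA repeats, 25 of the 31 were above 0. These settings also moved the median of all genes, and the share of all genes above 0 in them was not counted. The list median was 0.015 with median-ratio scaling and 0.035 without the repeat genes, beside -0.0040 and 0.015 for all genes. With quantile scaling it was 0.00080 beside -0.0082, in edgeR -0.0015 beside -0.0043, and in DESeq2 -0.0017 beside -0.0047. Sesn2, a leucine sensor that restrains mTORC1, was at 21.9, 21.7 and 19.7 CPM in the cKO libraries, and at 18.9, 18.9 and 17.7 CPM in the WT libraries. All 3 cKO libraries were above all WT libraries, with a log2 difference of 0.18 (95% confidence interval -0.0047 to 0.37; limma, adjusted p = 1.0). Separation in that direction was seen in 2.55% of all genes tested. Kptn, a subunit of the KICSTOR complex, averaged 14.6 ± 1.02 CPM in cKO and 13.3 ± 0.525 CPM in WT. Slc3a2, the CD98 heavy chain of amino acid transporters, averaged 90.9 ± 2.01 CPM in cKO and 94.7 ± 0.879 CPM in WT (SD, n = 3 each). All its cKO libraries were below all WT libraries, as in 1.77% of all genes tested. Its log2 difference was -0.059 (95% confidence interval -0.16 to 0.044) and did not pass. Slc7a5, the transporter chain that pairs with it, averaged 33.2 ± 11.2 CPM in cKO and 33.0 ± 15.8 CPM in WT (SD, n = 3 each), and was named after its values were seen.

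Effectors of mTOR were all in the table, and 0 of 18 passed, with 10 above and 8 below 0 (median 0.0070; 8 above with median-ratio scaling, edgeR or DESeq2, and 13 without 2 genes on ribosomal RNA repeats). Pdcd4, an inhibitor of translation that S6 kinase marks for degradation, was at 348, 331 and 356 CPM in the cKO libraries, and at 380, 362 and 361 CPM in the WT libraries. The groups did not overlap, with a log2 difference of -0.092 (95% confidence interval -0.21 to 0.027; limma, adjusted p = 1.0). Separation in that direction was seen in 1.77% of all genes tested. Ulk1, the autophagy kinase that mTORC1 inhibits, averaged 59.5 ± 2.10 CPM in cKO and 57.3 ± 1.72 CPM in WT, and Tfeb, the transcription factor of lysosome genes, 63.9 ± 7.90 CPM in cKO and 59.5 ± 3.62 CPM in WT (SD, n = 3 each). The S6 kinase gene Rps6kb1 averaged 69.4 ± 1.69 CPM in cKO and 68.3 ± 2.83 CPM in WT (SD, n = 3 each), and was named after its values were seen.

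Genes that FOXO factors are known to induce, which lie at the far end of the AKT branch, were all in the table, and 0 of 13 passed, with 8 above and 5 below 0 (median 0.015; 6 above with quantile scaling). S1pr1, a receptor for exit from lymphoid organs, was at 76.9, 54.4 and 86.7 CPM in the cKO libraries, and at 58.2, 65.4 and 51.8 CPM in the WT libraries. Its groups overlapped, and it was high and low in the same libraries as the B cell markers. Summed macrophage markers were likewise highest in cKO libraries 1 and 3 and lowest in WT library 3. Neither likeness was tested further. Ccng2, a cyclin of cell cycle arrest, averaged 83.8 ± 4.39 CPM in cKO and 79.8 ± 4.64 CPM in WT, and Klf2, named after its values were seen, 510 ± 25.7 CPM in cKO and 516 ± 41.9 CPM in WT (SD, n = 3 each).

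**Figure D5:**
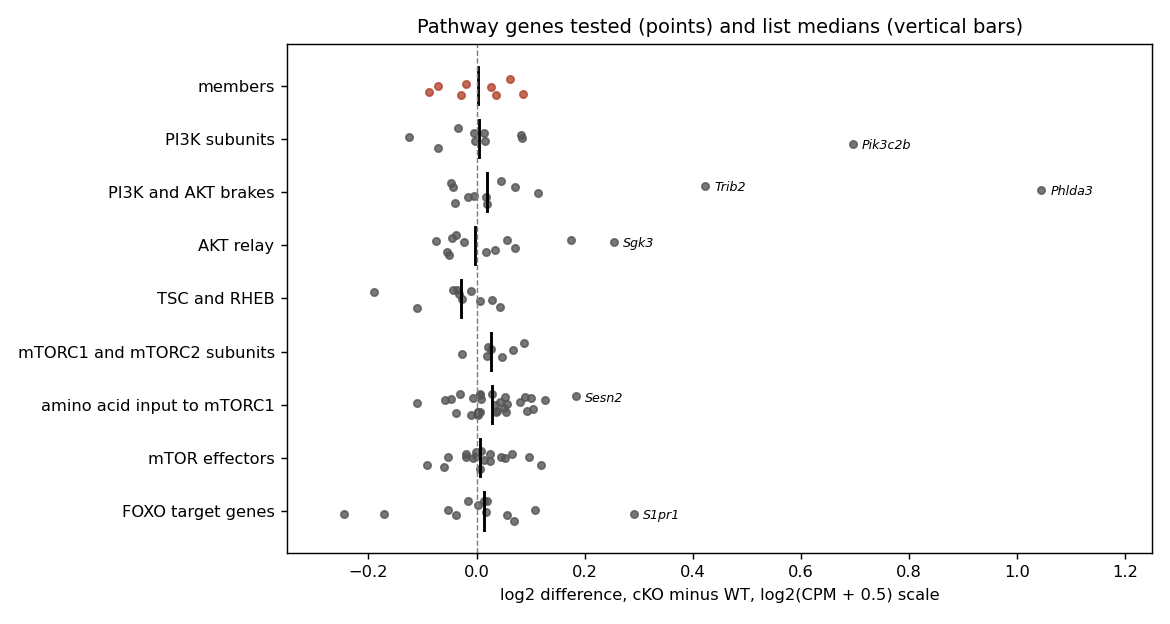
Log2 difference, cKO minus WT on the log2(CPM + 0.5) scale, of each tested gene (points) of the members and of the 8 other pathway lists, with vertical bars at the list medians. List medians lie between -0.030 and 0.028, and Phlda3 (1.04) and Pik3c2b (0.70) are the points farthest to the right.

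Over the 8 lists together, 113 of 123 fixed genes were tested and 0 passed in either direction in limma, edgeR or DESeq2. At an unadjusted p under 0.05 limma and edgeR listed 2 and DESeq2 3. The limma count was 1.77% of the 113, against 1.17% of all genes tested, and it included Phlda3. The groups did not overlap in 6 of the 113, of which 2 were higher in cKO and 4 lower, and in 4.32% of all genes tested. Phlpp2, a phosphatase of AKT and 1 of the 4, averaged 40.3 ± 0.183 CPM in cKO and 41.7 ± 1.47 CPM in WT (SD, n = 3 each). Of the 113, 69 had a log2 difference above 0, and 56 in edgeR or DESeq2 and 57 with quantile or median-ratio scaling. Their median was 0.014, beside 0.0087 for all genes tested, and it lay between -0.0017 (DESeq2) and 0.00088 (median-ratio scaling) in these 4 settings. Without 2 genes on ribosomal RNA repeats it rose, with 76 of the 113 above 0 and a median of 0.020. The median of all genes moved as well. It was -0.0047 in DESeq2, -0.0043 in edgeR, -0.0040 with median-ratio scaling, -0.0082 with quantile scaling and 0.015 without those 2 genes. The share of all genes above 0 in these settings was not counted. For the 8 members, confidence intervals of the unpaired limma fit reached no lower than -13.9% and no higher than 18.1%. Libraries were most alike in pairs across the genotypes (given below). Chi-square per degree of freedom was 4.74, 7.13 and 14.5 in these pairs, against 16.8 or more within a genotype. An unpaired fit leaves variation shared by a pair in its intervals, so their width need not be the limit of these libraries. No fit used all of these pairs, and the width it would give was not tested.

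Other cell types that a splenic preparation can hold were followed by fixed marker lists, beside the B cell markers given above. Summed macrophage markers, with 6 of 12 in the table, were at 236 to 446 CPM in cKO and 195 to 263 CPM in WT. Summed T cell markers (11 of 11) were at 133 to 195 CPM in cKO and 108 to 218 CPM in WT, neutrophil markers (9 of 9) at 121 to 164 CPM in cKO and 107 to 134 CPM in WT, and erythroid markers (7 of 8) at 24.1 to 67.2 CPM in cKO and 22.1 to 91.4 CPM in WT. Dendritic cell markers (7 of 9) were at 774 to 812 CPM in cKO and 813 to 957 CPM in WT, most of it Itgax, which NK cells also express. The part of these cells in the members' levels was not tested.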

How the data were processed

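Per the labels, RNA was extracted with RNeasy columns, made into libraries with KAPA Hyper Prep and sequenced as single reads of 50 bp on a HiSeq2500. HISAT2, HTSeq, DESeq2 and the build mm10 appear in the submitters' processing notes, with no versions or settings. The deposited values are named RPKM but are CPM made by the authors: each column sums to 1000000 and 100% of values are whole multiples of 1 read within 0.01 reads, whatever the gene's length. Reads were recovered from these steps. The exon length used for RPKM is the authors' deposited column. The test was limma 3.58.1 (R 4.3.3, intensity trend) on log2(CPM + 0.5), cKO against WT, two-sided, over the 11343 of 11717 genes that reached 1 CPM in 3 or more of the 6 libraries, with Benjamini-Hochberg adjustment over these. Fold changes on that scale understate those of low genes. Coordinates are from GENCODE M21 on the same build, matched by identifier for 11709 genes; spreadsheet-altered symbols were matched the same way.

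edgeR 4.0.16 and DESeq2 1.42.0 were run on the recovered reads. Alternatives were pseudocounts of 0.1 and 1, no filter or a mean of at least 5 CPM, quantile and median-ratio scaling, removal of 2 genes on ribosomal RNA repeats, no trend, a replicate block and leaving out each library. Every pair of libraries differed beyond sampling noise (the smallest chi-square per degree of freedom was 4.74). The limma and edgeR code was tested on simulated data. The members, lists and tests were chosen with earlier results of these data known. Genes named are the 8 members, Xbp1, the 3 of smallest p in each pathway list and the 3 most like the member of smallest p. Foxo1, Foxo3, the other class I PI3K genes, Slc7a5, Rps6kb1, Klf2 and Phlpp2 were added after their values were seen. So were the NK cell markers Ncr1, Nkg7, Klrd1 and Eomes. Some genes that this rule names are not reported here.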

Additional observations from a re-analysis of the deposited data

How the results depend on the processing

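No member and no pathway gene was called under any of the 17 alternatives. Over the whole table DESeq2 called 6 genes, where limma called 0. Akt2 and Pik3r1 stayed below 0 and Mtor and Tsc1 above 0 throughout, with ranges over left-out libraries of -0.11 to -0.055, -0.11 to -0.044, 0.011 to 0.12 and 0.046 to 0.12. Leaving out each library in turn turned the sign of the other members, whose log2 differences then ran from -0.085 to 0.035 (Akt1), -0.072 to 0.029 (Rptor), -0.039 to 0.093 (Rictor) and -0.012 to 0.073 (Pik3cd). Akt1 turned without cKO library 3 (0.035) or WT library 2 (0.011), Rptor without cKO library 2 (0.019) or WT library 3 (0.029), Rictor without cKO library 3 (-0.039) or WT library 1 (-0.0050), and Pik3cd without cKO library 3 (-0.0056) or WT library 1 (-0.012). These are fits on fewer samples, and each left a library of the other group without the one most like it (pairs given below). The median of the members ran from -0.022 to 0.046 when libraries were left out. It was below 0 with median-ratio scaling (-0.0097), edgeR (-0.0085) and DESeq2 (-0.0090), settings that moved the median of all genes to -0.0040, -0.0043 and -0.0047. The median of all genes was -0.0082 with quantile scaling and 0.015 without the 2 genes on ribosomal RNA repeats. Medians of the PI3K subunit and mTOR effector lists were also below 0 with median-ratio scaling (-0.0076 and -0.0059), edgeR and DESeq2, that of the amino acid list in edgeR (-0.0015) and DESeq2 (-0.0017), that of the FOXO target list with quantile scaling (-0.0030), and that of the AKT relay list was above 0 without the genes on ribosomal RNA repeats (0.0036). Same-numbered libraries deviated together for number 3 only (r across genes of -0.17, -0.51 and 0.48 for numbers 1, 2 and 3), so the numbers as a whole do not pair them. The pairs most alike were cKO library 1 with WT library 2 (0.65), cKO library 2 with WT library 1 (0.59) and cKO library 3 with WT library 3. These pairs also had the smallest chi-square per degree of freedom (7.13, 4.74 and 14.5). The labels tie none of them to a shared mouse or day. The block below uses the labelled numbers, which match only cKO library 3 with WT library 3, so it does not account for the other pairs. A replicate block left 0 members and 0 pathway genes called, and 118 genes of the whole table, instead of 133, at an unadjusted p under 0.05. Its log2 difference for Akt2 was -0.088 and the p unadjusted 0.197 (limma with the block). Counting error was at most 2.20%, close to the WT spread of Tsc1 (2.32%) and below the spread of the other members.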
